A study of Homo sapiens with 8 samples.

Results

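The APOBEC3 cytidine deaminases were followed in 8 bulk poly(A) RNA-seq libraries from Molm13 and THP1 cells, 2 human acute myeloid leukemia (AML) lines. The members were the 7 genes of the family, APOBEC3A, APOBEC3B, APOBEC3C, APOBEC3D, APOBEC3F, APOBEC3G and APOBEC3H, taken by gene symbol from the Molm13 table and by the same gene identifier from the THP1 table, out of 57722 genes listed in both. All 7 were found in both tables. Each line carried a doxycycline (Dox)-inducible short hairpin, either a control (shCtrl, labelled WT) or one against the arginine methyltransferase gene PRMT9 (shPRMT9), and all libraries, controls included, came from Dox-induced cells. There were 2 libraries in each of the 4 groups, labelled 1 and 2. The labels do not say whether these were separate cultures, so p-values measure the spread between these libraries, which may be technical, and the numbers 1 and 2 of the shPRMT9 libraries may stand for different hairpins, which the labels do not settle. They were treated as replicates.

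APOBEC3 proteins deaminate cytosine to uracil in single-stranded DNA, and the family is known for restricting retroviruses and endogenous retroelements. Uracils placed in a reverse transcript are read as thymine, and APOBEC3G packaged into virions is the best-studied case. Several members are known targets of type I interferon signaling in myeloid cells, whereas APOBEC3B is better known for its ties to NF-kB and the cell cycle and for its mutation signature in tumors. APOBEC3A, APOBEC3C and APOBEC3H carry 1 deaminase domain each, and APOBEC3B, APOBEC3D, APOBEC3F and APOBEC3G carry 2.

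All 7 genes lie side by side on the plus strand of chromosome 22 (hg38). The Molm13 table places APOBEC3A (ENSG00000128383) at chr22:38952741-38992778, APOBEC3B (ENSG00000179750) at chr22:38982347-38992804 and APOBEC3C (ENSG00000244509) at chr22:39014083-39020352. APOBEC3D (ENSG00000243811) follows at chr22:39014363-39033276, APOBEC3F (ENSG00000128394) at chr22:39040604-39053910, APOBEC3G (ENSG00000239713) at chr22:39040961-39087743 and APOBEC3H (ENSG00000100298) at chr22:39097224-39104067. By these coordinates, the spans of APOBEC3A and APOBEC3B overlap, as do those of APOBEC3C and APOBEC3D and of APOBEC3F and APOBEC3G. The GENCODE 29 annotation has the same spans for APOBEC3A and APOBEC3B, and so the same overlap. There, however, APOBEC3D starts at 39021113, beyond the end of APOBEC3C at 39020352. APOBEC3G starts at 39077005 in it, beyond the end of APOBEC3F at 39053910, so neither of these pairs overlaps in GENCODE 29. The span of APOBEC3H overlaps no other member.

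Parts of several members are close copies of one another, which matters for counts of short reads. To show this, 45 bases of the coding sequence are given for all 11 deaminase domains, each read from the GENCODE 29 transcripts (GRCh38, plus strand), starting at the first codon of the zinc-binding His-x-Glu motif, whose 3 codons are in capitals. Each window lies within 1 coding exon, exon 3 for the first or only domain and exon 6 for the second.
APOBEC3A (chr22:38961420-38961464): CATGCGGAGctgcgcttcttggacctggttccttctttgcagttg
APOBEC3B, domain 1 (chr22:38985833-38985877): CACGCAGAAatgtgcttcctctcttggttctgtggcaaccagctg
APOBEC3B, domain 2 (chr22:38991365-38991409): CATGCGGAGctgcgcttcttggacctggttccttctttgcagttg
APOBEC3C (chr22:39017787-39017831): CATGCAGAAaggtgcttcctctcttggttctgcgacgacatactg
APOBEC3D, domain 1 (chr22:39025091-39025135): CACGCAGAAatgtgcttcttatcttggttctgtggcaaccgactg
APOBEC3D, domain 2 (chr22:39031715-39031759): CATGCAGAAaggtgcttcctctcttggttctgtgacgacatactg
APOBEC3F, domain 1 (chr22:39044962-39045006): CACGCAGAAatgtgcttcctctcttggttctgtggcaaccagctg
APOBEC3F, domain 2 (chr22:39052095-39052139): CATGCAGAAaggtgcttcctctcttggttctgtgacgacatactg
APOBEC3G, domain 1 (chr22:39080954-39080998): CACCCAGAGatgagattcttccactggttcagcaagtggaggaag
APOBEC3G, domain 2 (chr22:39086312-39086356): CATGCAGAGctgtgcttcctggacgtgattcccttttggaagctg
APOBEC3H (chr22:39101246-39101290): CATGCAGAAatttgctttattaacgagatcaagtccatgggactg
The window of APOBEC3A was identical to that of the second domain of APOBEC3B at 45 of 45 bases. The first domains of APOBEC3B and APOBEC3F were also identical at all 45, as were the second domains of APOBEC3D and APOBEC3F. The single window of APOBEC3C matched these last 2 at 44 of 45 bases. Other windows were less alike: that of APOBEC3H had at most 26 of 45 bases in common with any other window, and the first domain of APOBEC3G at most 25.

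Over whole transcripts, stretches of 50 bases that occur in another member made up 37.8% of the distinct stretches in APOBEC3B, 24.5% in APOBEC3A, 20.8% in APOBEC3F and 14.8% in APOBEC3D. The share was 7.06% in APOBEC3G, 1.14% in APOBEC3C and 0 in APOBEC3H. How the counting treated reads that match several members is not given in the sources used here, so counts of APOBEC3A, APOBEC3B, APOBEC3D and APOBEC3F carry more uncertainty than their counting error. APOBEC3A and APOBEC3B also share 348 exonic bases on the same strand. In GENCODE 29, a read-through gene (ENSG00000284554) covers 2104 exonic bases of APOBEC3D and 17 of APOBEC3C. It is not listed in the Molm13 table and stands at 0 in all 4 THP1 libraries, so the tables may treat reads of APOBEC3D differently, and its levels in Molm13 and THP1 are not comparable.

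The libraries held 18720950 to 27356870 counts. PRMT9 itself fell in both lines, from 332 and 289 counts to 41 and 56 in Molm13 and from 317 and 352 to 60 and 68 in THP1. Of 8 myeloid markers, all 8 had counts in both lines, with a summed level of 1280 to 1893 CPM (counts scaled to a common library total) in Molm13 and 2621 to 4074 CPM in THP1. Of 7 T and NK cell markers, CD3D, CD3E and CD8A were at 0 in all THP1 libraries, and 4 had counts there. Among these 4, CD3G had 9 to 14 counts per library, KLRD1 38 to 52 and NKG7 126 to 235. All 7 had counts in Molm13, where the highest counts of CD3D and CD3E were 3 and 1 and NKG7 had 282 to 568. The erythroid sum reached at most 0.273 CPM in any library. The library names of THP1 also carry the letters OCI. The lines came in separate tables, so the line and its handling cannot be told apart.

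In Molm13, PRMT9 KD was accompanied by higher APOBEC3C, APOBEC3F, APOBEC3G and APOBEC3H, while APOBEC3B did not pass the test and APOBEC3A had no count. In THP1, APOBEC3F and APOBEC3G rose, whereas APOBEC3B and APOBEC3C did not pass the test. Library totals behind CPM were adjusted with trimmed-mean factors. A gene was called at a false discovery rate (FDR) below 0.05 in edgeR's quasi-likelihood test. Of the 7 members, 6 passed the filter on low counts in Molm13, and 4 of these were called higher, 0 lower and 2 not called. APOBEC3F, at 0.392 and 0.409 CPM in the Molm13 controls, passed it only through the shPRMT9 libraries, so it could be called only higher there. APOBEC3D also needed a shPRMT9 library to pass. Of all 16446 genes tested in Molm13, 33.4% were called higher and 33.5% lower. In THP1, 4 members passed the filter, with 2 called higher, 0 lower and 2 not called, and of 16294 genes 19.0% were called higher and 18.6% lower. Over all tested genes the median log2 fold change was 0.00047 (Molm13) and -0.00063 (THP1). In bulk libraries, fewer cells of a type and less RNA per cell cannot be told apart.

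**Figure D1:**
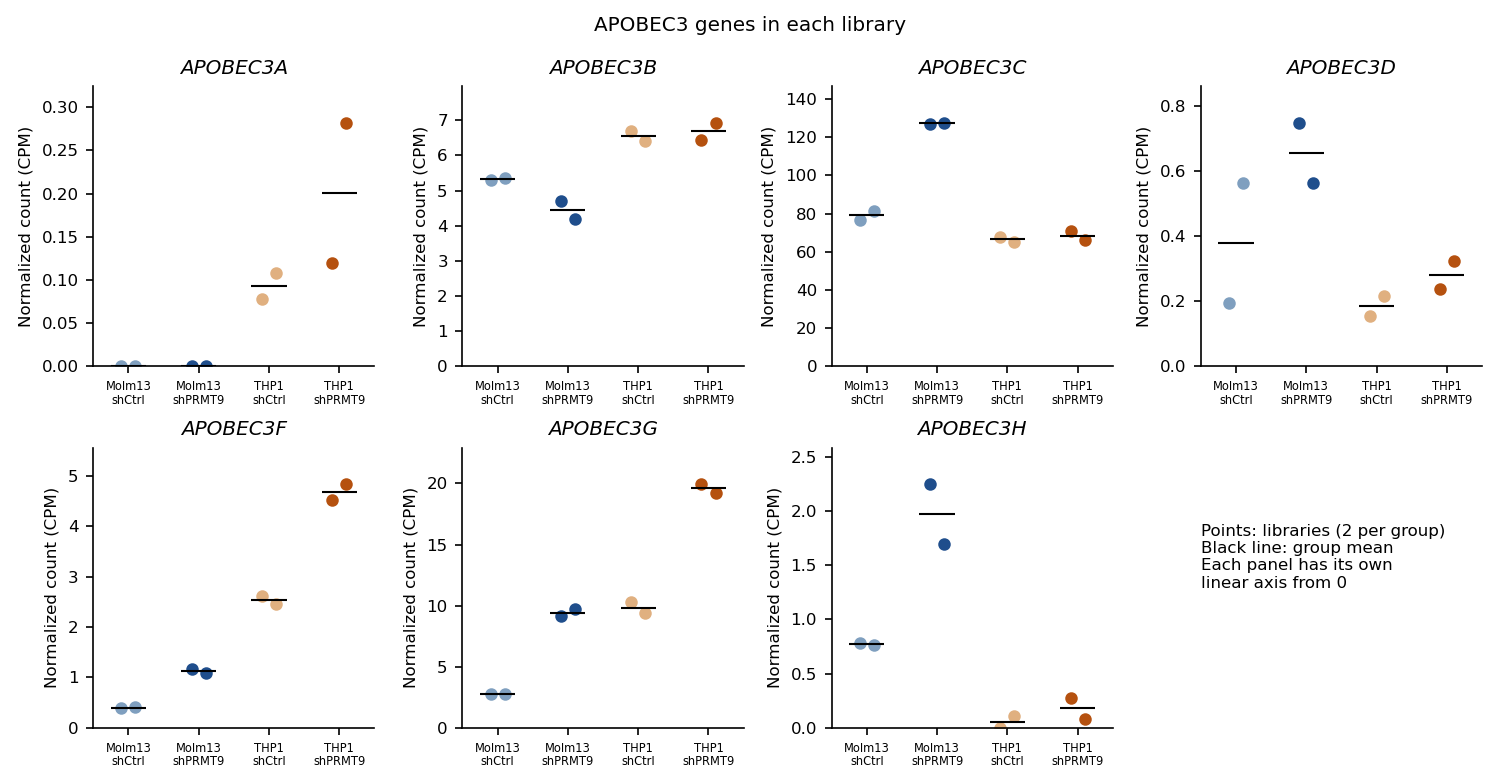
Normalized counts (CPM, linear axes from 0, one panel per gene with its own scale) of the 7 APOBEC3 genes in the 8 libraries, with the mean of each group of 2 as a black line. APOBEC3F and APOBEC3G are higher with shPRMT9 in both lines, APOBEC3C in Molm13, and APOBEC3A is at 0 in all Molm13 libraries.

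APOBEC3G, the member best known for restricting HIV lacking its Vif protein, had the largest log2 fold change of the called members in both lines. It stood at 2.74 and 2.81 CPM in the Molm13 controls and at 9.14 and 9.73 CPM with shPRMT9. In THP1 it stood at 10.3 and 9.36 CPM in the controls and at 19.9 and 19.2 CPM with shPRMT9. The groups did not overlap in either line. With 2 libraries against 2, such separation only describes the libraries, here and below, and its share over all genes was not counted. In Molm13 the mean rose from 2.78 ± 0.0484 to 9.44 ± 0.414 CPM (SD, n = 2), a 3.40-fold change (log2 1.76, SE 0.15, FDR 3.0e-14). In THP1 it rose from 9.82 ± 0.646 to 19.6 ± 0.511 CPM, a 2.00-fold change (log2 1.00, SE 0.09, FDR 3.2e-10). The shPRMT9 libraries of Molm13 lay near the THP1 controls, on scales normalized separately in each table, as are all CPM and RPKM levels set across lines here.

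APOBEC3F, a 2-domain deaminase that also restricts Vif-deficient HIV, moved in the same direction from a lower level. It had 8 and 8 counts in the Molm13 controls and 22 and 23 with shPRMT9, and 67 and 68 in the THP1 controls and 114 and 120 with shPRMT9. Both knockdown libraries exceeded both controls in each line. In CPM the means were 0.400 ± 0.0121 and 1.13 ± 0.0675 in Molm13 (log2 1.48, SE 0.40, FDR 0.0013). In THP1 they were 2.53 ± 0.120 and 4.68 ± 0.217 (log2 0.89, SE 0.17, FDR 9.9e-05), a 1.85-fold change. DESeq2 did not call the rise in Molm13 (log2 1.49, FDR 0.0547), and the cause was not tested.

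APOBEC3C, a single-domain enzyme with weak activity against HIV, was the member with the most counts in every library. It stood at 76.7 and 81.3 CPM in the Molm13 controls and at 126.9 and 127.6 CPM with shPRMT9. In THP1 it stood at 67.8 and 65.1 CPM in the controls and at 70.8 and 66.1 CPM with shPRMT9. The groups were far apart in Molm13 and overlapped in THP1. The Molm13 mean rose 1.61-fold from 79.0 ± 3.27 to 127 ± 0.508 CPM (log2 0.69, SE 0.04, FDR 7.4e-20). The THP1 means were 66.4 ± 1.93 and 68.4 ± 3.30 CPM (log2 0.04, 95% interval -0.06 to 0.14, FDR 0.540).

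APOBEC3H, a single-domain member whose haplotypes differ in protein stability, had more than 10 counts per library only in Molm13. There it had 16 and 15 counts in the controls and 42 and 36 with shPRMT9, without overlap. The mean rose from 0.775 ± 0.0120 to 1.97 ± 0.392 CPM, a 2.51-fold change (log2 1.33, SE 0.31, FDR 2.3e-04). In THP1 it had 0 and 3 counts in the controls and 7 and 2 with shPRMT9, and the groups overlapped. The gene was not tested there because it did not pass the filter on low counts. The pooled ratio of 9 to 3 counts was 3.14, with an exact 95% counting interval of 0.785 to 18.1, which covers counting error only.

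APOBEC3B, the nuclear member linked to mutations in solid tumors, did not pass the test in either line. It stood at 5.29 and 5.37 CPM in the Molm13 controls and at 4.71 and 4.18 CPM with shPRMT9. In THP1 it stood at 6.68 and 6.41 CPM in the controls and at 6.44 and 6.93 CPM with shPRMT9. Both Molm13 knockdown libraries lay below both controls, and the THP1 groups overlapped. The log2 fold change was -0.27 in Molm13 (95% interval -0.58 to 0.05, FDR 0.126) and 0.03 in THP1 (95% interval -0.22 to 0.28, FDR 0.872).

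APOBEC3A, the interferon-inducible deaminase of monocytes, had no count in any Molm13 library. The limit that a count of 0 allows was 0.141 to 0.160 CPM per library. In THP1 it had 2 and 3 counts in the controls and 3 and 7 with shPRMT9, too few for the test. The pooled ratio of 10 to 5 counts was 2.10, with an exact 95% counting interval of 0.653 to 7.81. APOBEC3D, a further 2-domain member, had 4 and 11 counts in the Molm13 controls and 14 and 12 with shPRMT9, and was not called (log2 0.78, 95% interval -0.19 to 1.76, FDR 0.151). Without control library 2 of Molm13, it was called at a log2 fold change of 1.70 (FDR 0.0477), so 1 library decided that value. In THP1 the counts of APOBEC3D were 4 and 6 in the controls and 6 and 8 with shPRMT9, with a pooled ratio of 1.47 (exact 95% counting interval 0.606 to 3.69). At this depth no difference in APOBEC3A or APOBEC3D was detectable in THP1.

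**Figure D2:**
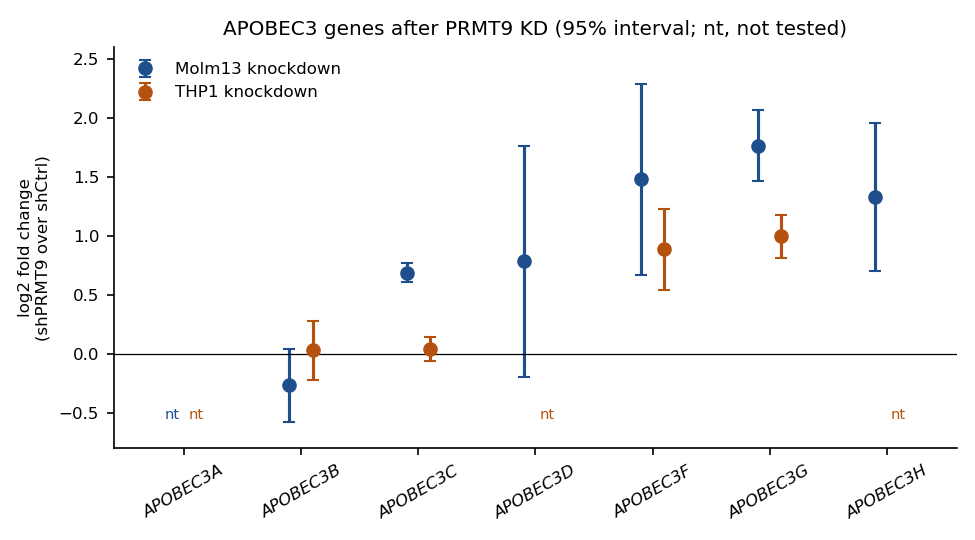
Log2 fold change of shPRMT9 over shCtrl for each APOBEC3 gene in Molm13 (blue) and THP1 (orange), with 95% intervals from edgeR's quasi-likelihood fit (nt, not tested for low counts). The intervals of APOBEC3F and APOBEC3G lie above 0 in both lines, those of APOBEC3C and APOBEC3H in Molm13, and those of APOBEC3B include 0 in both.

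Differentially expressed genes (DEGs) by the study's stricter rule also needed a fold change above 1.5 or below 1/1.5 and more than 1 RPKM (CPM divided by the exon length in kb) in at least 1 library. In Molm13, APOBEC3C, APOBEC3G and APOBEC3H were DEGs, and APOBEC3F was not because its RPKM stayed below 1. Of all tested genes in Molm13, 11.4% were DEGs that rose and 11.3% DEGs that fell. In THP1, APOBEC3F and APOBEC3G were DEGs, beside 3.83% of all tested genes that rose and 2.39% that fell. With a fold limit of 2, APOBEC3G and APOBEC3H remained among the Molm13 members, 2 in all, beside 1302 of 16446 genes tested. In THP1, 0 members did, beside 400 of 16294 genes tested, with APOBEC3G just under the limit at 1.998-fold. Its log2 fold change in THP1 ran from 0.93 to 1.06 under the alternatives, so its side of this limit depends on the fit.

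A further comparison set the response to shPRMT9 in THP1 against that in Molm13, by the interaction term of a fit of all 8 libraries over 19288 genes. The log2 fold change of APOBEC3C, which was not called in THP1, was lower there than in Molm13 (difference -0.63, SE 0.06, 95% interval -0.76 to -0.51, FDR 2.5e-15). The rise of APOBEC3G was smaller there as well (difference -0.75, SE 0.18, 95% interval -1.11 to -0.40, FDR 2.6e-04). For APOBEC3F the difference was -0.58 (95% interval -1.47 to 0.31, FDR 0.329) and for APOBEC3B 0.31 (95% interval -0.08 to 0.70, FDR 0.222). Neither passed the test, and the interval for APOBEC3F leaves room for a difference as large as that of APOBEC3G. For APOBEC3D and APOBEC3H, with few counts in THP1, the SE of the difference was 0.88 and 0.83. Of the 6 members tested, 2 were thus called, both lower in THP1, where 19.4% of all genes were called lower and 22.8% higher.

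The control libraries show the starting levels in the lines. APOBEC3F and APOBEC3G were higher in THP1 than in Molm13, by 2.65 (SE 0.32, FDR 3.5e-12) and 1.82 (SE 0.14, FDR 2.1e-21) on the log2 scale. APOBEC3H was lower in THP1, with 3 counts against 31 in Molm13, a Molm13 to THP1 ratio of 13.6 (exact 95% counting interval 4.26 to 69.8, for counting error only). The fitted log2 difference of APOBEC3H was -3.66, and it came to -2.76 without THP1 control library 1 and -7.12 without library 2, a fit against a lone library at 0 that depends on the prior count, so its size rests on single libraries. For APOBEC3B (log2 0.30, FDR 0.0378) and APOBEC3C (log2 -0.25, FDR 8.3e-07) the difference was under the 1.5-fold limit set for this comparison. Of the 6 members tested, 2 were called higher in THP1, 1 lower and 3 not called, beside 28.4% of all genes called higher and 31.1% lower. The 1 called lower, APOBEC3H, passed the filter on low counts only through its Molm13 libraries, so no other call was open to it. APOBEC3D, whose levels are not comparable between the lines, is among the 3 not called. This comparison uses the same control libraries as the knockdown comparisons.

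Levels can be compared between genes only per exon length. In RPKM, APOBEC3C was first in all 4 groups, at 28.0 and 45.1 in Molm13 and 23.6 and 24.3 in THP1 (shCtrl and shPRMT9 means). APOBEC3B came next in both control groups and in Molm13 with shPRMT9, at 2.81 and 2.34 in Molm13 and 3.45 and 3.52 in THP1. APOBEC3G rose from 0.509 to 1.73 RPKM in Molm13 and from 1.80 to 3.59 RPKM in THP1. In THP1 with shPRMT9 its libraries, at 3.66 and 3.52 RPKM, overlapped those of APOBEC3B at 3.39 and 3.66 RPKM, so these neighbours in the order did not differ beyond their spread. When all counts of a gene were divided by only the exonic bases that no other gene covers, APOBEC3B stood at 4.59 RPKM there and ranked above APOBEC3G.

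The order below these genes depended on the line. In the Molm13 controls APOBEC3H (0.620 RPKM) preceded APOBEC3G, and with shPRMT9 APOBEC3H at 1.80 and 1.35 RPKM overlapped APOBEC3G at 1.68 and 1.78 RPKM. APOBEC3F stood at 0.124 and 0.348 RPKM in Molm13, and in the controls its libraries lay within the range of APOBEC3D. In THP1, APOBEC3F followed APOBEC3G at 0.781 and 1.44 RPKM. APOBEC3A, APOBEC3D and APOBEC3H each stayed at or below 0.223 RPKM in every THP1 library, and with shPRMT9 their ranges overlapped. With only the unshared exonic bases as length (424 in place of 2545), APOBEC3D in THP1 stood at 0.439 RPKM in the controls and 0.661 RPKM with shPRMT9. That was above APOBEC3A (0.0463 and 0.0998 RPKM) and APOBEC3H (0.0432 and 0.143 RPKM), so the place of APOBEC3D depends on the length used. All counts of the gene were divided by that length, which is apt only if reads on shared bases went uncounted, and this is not known. In Molm13, APOBEC3D kept its full length.

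Summed over the 7 genes, the family stood at 31.3 and 33.2 RPKM in the Molm13 controls and at 51.6 and 51.2 RPKM with shPRMT9. In THP1 it stood at 30.4 and 29.2 RPKM in the controls and at 33.9 and 32.4 RPKM with shPRMT9. The sum was thus higher with shPRMT9 in both lines without overlap, and APOBEC3C made up most of it. Its share of the summed RPKM went from 86.9% to 87.8% in Molm13 and from 79.2% to 73.2% in THP1. The share of APOBEC3G went from 1.58% to 3.37% in Molm13 and from 6.04% to 10.8% in THP1.

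**Figure D3:**
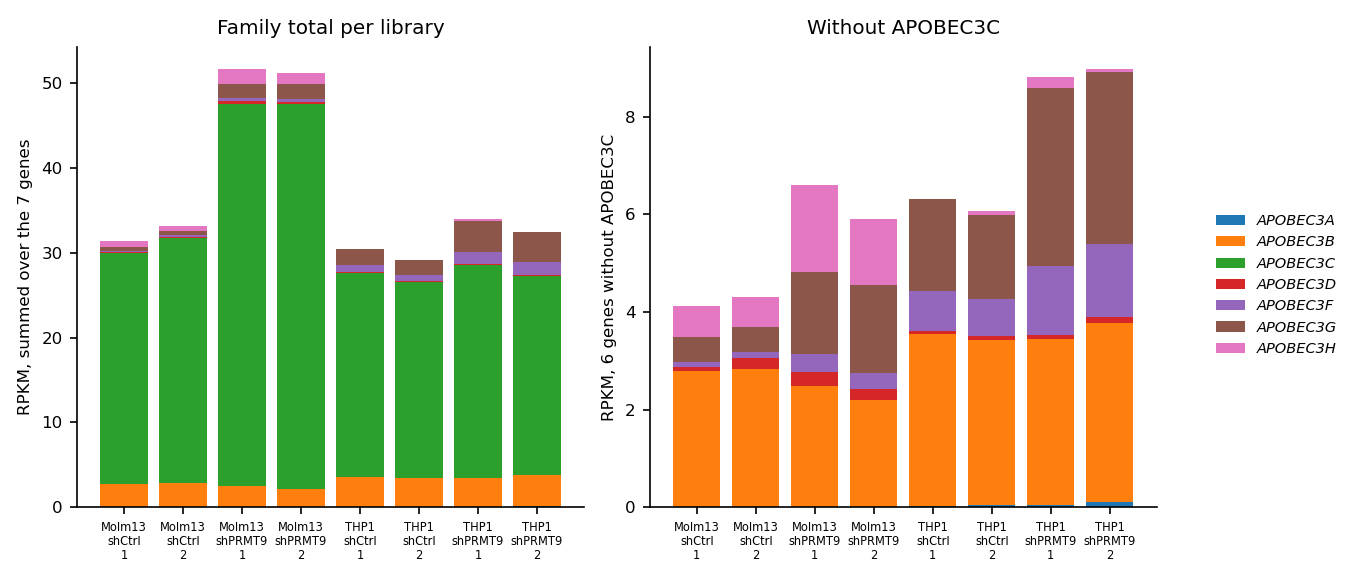
Stacked RPKM of the APOBEC3 genes in each library (bars from 0), with all 7 genes on the left and the 6 genes without APOBEC3C on the right. APOBEC3C fills most of each left bar, and on the right APOBEC3B is the largest part in every library but shPRMT9 library 1 of THP1, where APOBEC3G stands at 3.66 and APOBEC3B at 3.39 RPKM.

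The genes around the cluster were then read in the same fits. There were 26 other genes within 250 kb of its ends. Of 12 tested in Molm13, 5 were called higher, 4 lower and 3 not called, and of 11 tested in THP1, 1 higher, 3 lower and 7 not called. Next to APOBEC3H lies CBX7, a Polycomb subunit, which rose in Molm13 (log2 1.29, SE 0.18, FDR 1.8e-08) and fell in THP1 (log2 -0.28, SE 0.11, FDR 0.049). PDGFB, a growth factor gene farther along, had 0 counts in the Molm13 controls and 45 with shPRMT9, at least 15.0-fold higher against 3 counts over the group. On the other side, CBX6, also a Polycomb subunit, fell in Molm13 (log2 -0.48, SE 0.04) and in THP1 (log2 -0.11, SE 0.05, FDR 0.047). GTPBP1 fell in Molm13 (log2 -0.23, SE 0.06) and rose in THP1 (log2 0.45, SE 0.04). The antisense gene APOBEC3B-AS1 had at most 1 count in any Molm13 library and at most 2 in any THP1 library. It overlaps exons of APOBEC3A and APOBEC3B, and without a stated strand setting its reads and theirs cannot be told apart there.

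**Figure D4:**
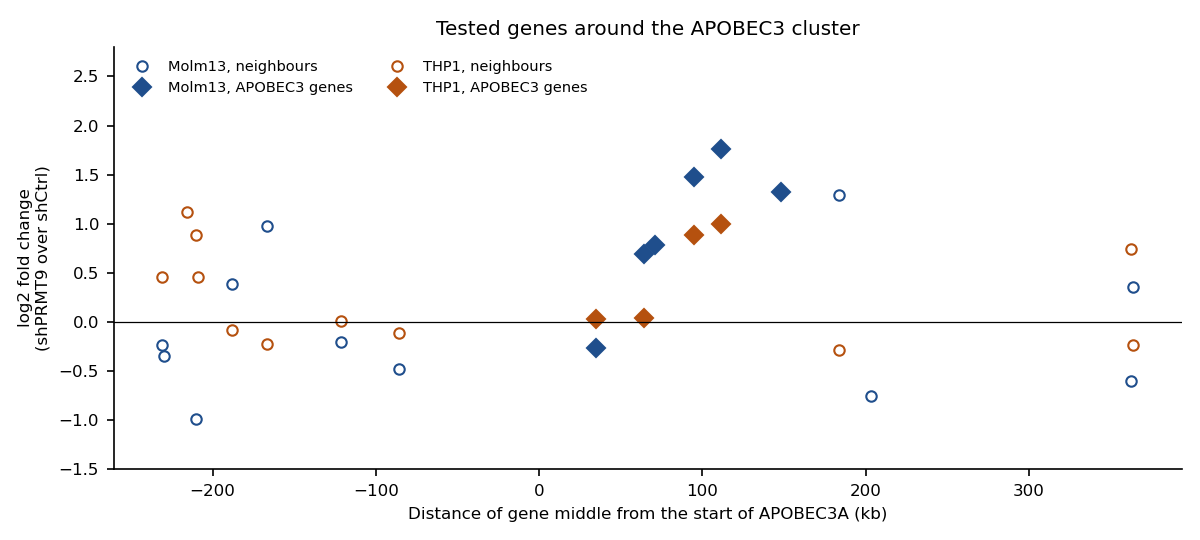
Log2 fold change of shPRMT9 over shCtrl for the tested genes of the APOBEC3 cluster (filled diamonds) and its neighbours (open circles), by the distance of each gene's middle from the start of APOBEC3A, in Molm13 (blue) and THP1 (orange). PDGFB in Molm13 lies off the scale. In Molm13 the members from APOBEC3C to APOBEC3H lie above 0 with CBX7 beyond them, and neighbours on both sides lie above and below 0.

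Known regulators of APOBEC3 transcription were read as fixed lists, by their mRNA alone. Their part in the APOBEC3 values was not tested. On the interferon side (STAT2, IRF9, IRF1 and IRF7), 3 of 4 genes rose in Molm13 and 4 of 4 in THP1, with a median log2 fold change of 1.78 and 0.97. IRF7, the interferon-amplifying factor, had the largest rise in both lines (log2 1.95, SE 0.08 in Molm13 and 1.61, SE 0.05 in THP1). In Molm13 its lead over IRF9 lay within the SE. IRF9, the DNA-binding part of the interferon-stimulated complex ISGF3, rose by log2 1.91 (SE 0.18) in Molm13 and 0.67 (SE 0.12) in THP1. STAT2, a further part of ISGF3, rose by log2 1.65 (SE 0.04) in Molm13 and 1.26 (SE 0.04) in THP1, a difference of -0.38 (SE 0.06, FDR 1.5e-08). IRF1 was called in THP1 (log2 0.45) and not in Molm13.

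On the NF-kB side, 3 of 5 genes rose and 2 fell in Molm13, and 4 rose and 1 fell in THP1, with a median of 0.19 and 0.57. NFKB2 and RELB, partners in the noncanonical pathway that has been tied to APOBEC3B, had the largest rises. NFKB2 rose by log2 2.89 (SE 0.08) in Molm13 and 2.04 (SE 0.08) in THP1, and RELB by 2.43 (SE 0.15) and 1.51 (SE 0.09). PRKCA, whose kinase acts upstream of that pathway, fell in both lines (log2 -0.33 and -0.48). APOBEC3B, as given above, was called in neither line, and a link between it and these mRNA levels was not tested.

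On the cell cycle side, which holds p53, its target CDKN1A and parts of the DREAM and MYBL2 complexes, 3 of 10 genes rose and 7 fell in Molm13, with a median of -0.64. In THP1, 3 rose, 3 fell and 4 were not called, with a median of 0.08. E2F1 and MYBL2, activators of cell cycle genes, fell in Molm13 (log2 -1.40 and -1.34) and less in THP1 (log2 -0.25 and -0.46). The difference was 1.17 for E2F1 (FDR 1.9e-21) and 0.89 for MYBL2 (FDR 3.0e-30). CDKN1A, a brake on the cell cycle, rose in Molm13 (log2 0.65, SE 0.03) and THP1 (log2 1.29, SE 0.11).

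**Figure D5:**
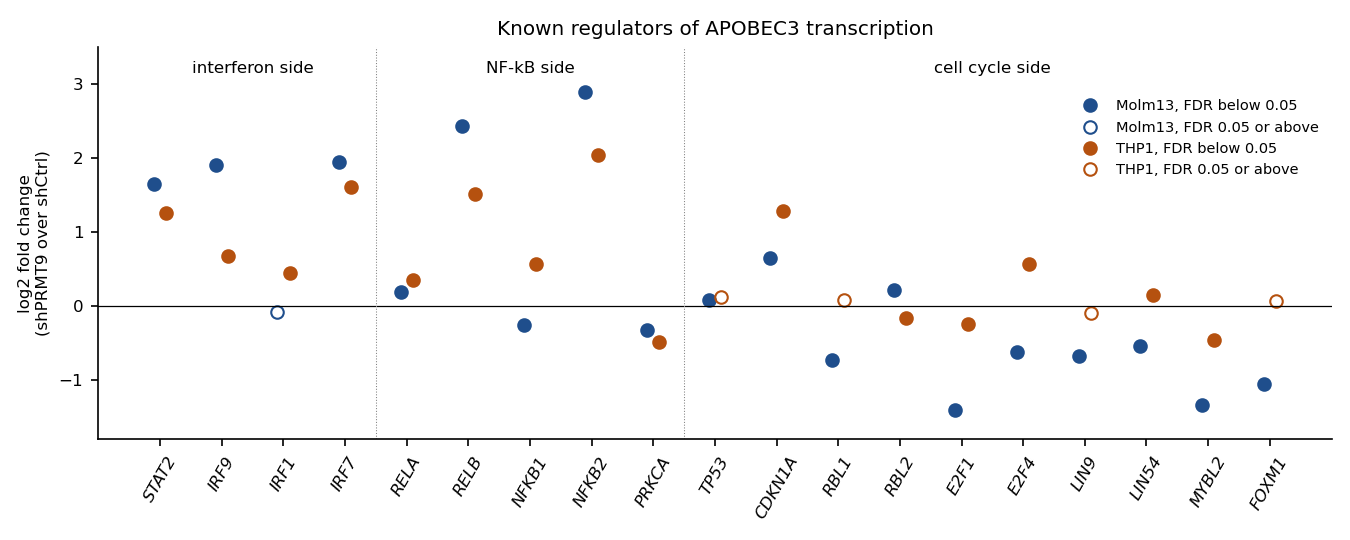
Log2 fold change of shPRMT9 over shCtrl for 19 known regulators of APOBEC3 genes in 3 lists, in Molm13 (blue) and THP1 (orange), with filled points for an FDR below 0.05. All interferon-side genes but IRF1 in Molm13 are called and above 0 in both lines, NFKB2 and RELB lead the NF-kB side, and 7 of 10 cell cycle genes lie below 0 in Molm13.

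Only for APOBEC3H did the promoter table give an entry, 1 of 7 members. Its 300 bases (RefSeq, GRCh38.p14, chr22:39096994-39097293, plus strand, 250 before the start and 50 after) are shown because interferon-stimulated factors bind known short motifs near gene starts.
APOBEC3H promoter: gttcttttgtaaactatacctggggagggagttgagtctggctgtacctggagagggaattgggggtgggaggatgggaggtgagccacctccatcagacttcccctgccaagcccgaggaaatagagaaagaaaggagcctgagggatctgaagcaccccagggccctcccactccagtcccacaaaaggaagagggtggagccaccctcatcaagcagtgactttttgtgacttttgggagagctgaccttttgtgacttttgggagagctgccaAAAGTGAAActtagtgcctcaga
The core of an interferon-stimulated response element, which is AAANNGAAA with a G before it, was searched on both strands and is not in this window. It is held by 3.57% of 35116 promoters of the same length. The letters TTCNNNGAA of a gamma-activated site are not in it, and 7.66% of promoters hold them. The form AAANNGAAA without that G, which overlaps the first motif and was chosen after the window was read, occurs once and is in capitals. It is held by 10.5% of promoters. A match of letters is a description and not a binding site.

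Members of other deaminase families were compared next. Of 12 genes, 7 were tested in Molm13, with 0 called higher, 3 lower and 4 not called, and 8 in THP1, with 1 higher, 1 lower and 6 not called. ADAR, the interferon-inducible adenosine deaminase of double-stranded RNA, fell slightly in Molm13 (log2 -0.18, SE 0.03) and rose in THP1 (log2 0.78, SE 0.03), a difference of 0.97 (SE 0.04, FDR 9.3e-40). ADAT1, a tRNA adenosine deaminase, fell in Molm13 (log2 -1.06, SE 0.08), as did DCTD, the deoxycytidylate deaminase (log2 -0.44, SE 0.05). CDA, the cytidine deaminase of nucleotide salvage, fell in THP1 from 31 and 46 counts to 9 and 5 (log2 -2.34, SE 0.40). APOBEC1 and APOBEC4 had none, and APOBEC2 had 1 in all.

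Uracil in DNA is the product of APOBEC3 activity, and a list of 11 genes was read that holds uracil glycosylases, DUT and factors of the later repair steps. Of these 11, 3 rose, 5 fell and 3 were not called in Molm13, and 2 rose, 3 fell and 6 were not called in THP1. UNG, the main uracil DNA glycosylase, fell in Molm13 (log2 -0.75, SE 0.04) and in THP1 (log2 -0.25, SE 0.05). DUT, which keeps dUTP low, fell in both lines as well (log2 -0.69 and -0.35). SMUG1, a second uracil glycosylase, rose in both (log2 0.29 and 0.22). LIG3, a DNA ligase of base excision repair, fell in Molm13 (log2 -0.54) and rose in THP1 (log2 0.23), with a difference of 0.78 (FDR 1.0e-19).

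The HIV protein Vif recruits a host ubiquitin ligase to APOBEC3 proteins, and its 6 host partners were followed although no virus was part of the study. In Molm13, 1 rose, 4 fell and 1 was not called, and in THP1 0 rose, 2 fell and 4 were not called. ARIH2, the ligase that works with the complex, fell in Molm13 (log2 -0.77, SE 0.05). CBFB, the transcription cofactor that Vif uses, fell in both lines (log2 -0.68 and -0.12), and RNF7, the RING subunit, rose in Molm13 (log2 0.40, SE 0.07).

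Markers of cell types moved beside the members. The myeloid sum was 1280 to 1286 CPM in the Molm13 controls and 1888 to 1893 CPM with shPRMT9, and it was 2621 to 2666 CPM in the THP1 controls and 3921 to 4074 CPM with shPRMT9. LYZ was a large part of it, at 633 to 635 CPM in the Molm13 controls and 996 to 1011 CPM with shPRMT9. In THP1, LYZ stood at 1880 to 1892 CPM in the controls and 3007 to 3156 CPM with shPRMT9. Of the 7 myeloid markers tested in Molm13, 6 rose and MPO fell (log2 -0.56), and of 8 in THP1, 6 rose while MPO and CEBPA fell (log2 -0.82 and -0.12). The T and NK cell sum of 7 markers was 14.7 to 16.4 CPM in the Molm13 controls and 25.1 to 27.3 CPM with shPRMT9, and it was 7.03 to 7.74 CPM in the THP1 controls and 11.8 to 12.0 CPM with shPRMT9. NKG7 made up most of that sum and rose in both lines (log2 0.77 and 0.84), and CD3D, CD3E and CD8A were at 0 in THP1. The B cell sum of 5 markers was 4.02 to 4.64 CPM in the THP1 controls and 12.6 to 14.1 CPM with shPRMT9, with PAX5 rising (log2 2.03), and in Molm13 it was 42.7 to 42.9 CPM in the controls and 39.5 to 40.7 CPM with shPRMT9. PAX5 made up nearly all of the Molm13 sum, at 42.4 CPM in both controls and 39.6 and 38.6 CPM with shPRMT9. The part of these markers in the APOBEC3 values was not tested.

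The genes whose level over the 8 libraries was most like each member were read by Pearson's r of log2 CPM, as a description, since all points share their library and fall into 4 groups. APOBEC3G was most like IGF2R (r = 0.998) and CSF1R (r = 0.997), and APOBEC3F most like LGALS9 (r = 0.999) and LYZ (r = 0.998). APOBEC3C was most like C20orf194 (r = 0.999) and MT1E (r = 0.996), APOBEC3B most like MTX1 (r = 0.995) and APOBEC3H most like TCTN2 (r = 0.996). Among the members other than APOBEC3D, APOBEC3C and APOBEC3H had an r of 0.954 and APOBEC3F and APOBEC3G one of 0.931. APOBEC3B ran opposite to APOBEC3C (r = -0.931) and to APOBEC3H (r = -0.953).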

How the data were processed

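The authors sequenced poly(A) RNA (Kapa mRNA HyperPrep) of Molm13 and THP1 cells, which the authors deposited as raw counts of reads per gene, in 1 table for each line. Per the submitters' processing notes, the tools were TopHat2 2.0.8, HTSeq 0.11.2 and edgeR 3.30.3, with build hg38. The annotation, the strand setting and the counting mode are not given in the sources used here. The Molm13 table also gives coordinates and exon lengths, which were used for RPKM in both lines.

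From the counts, edgeR 4.0.16 (R 4.3.3) was used with TMM factors, the filterByExpr filter and its quasi-likelihood test, adjusted by Benjamini-Hochberg across all genes tested, separately in each line (shPRMT9 against shCtrl) and in all 8 libraries for the difference between lines and between controls. The wording of the upper fold limit in the study's methods was read as above 1.5. An SE is the size of the log2 fold change over the root of F, and intervals are 95%. Library totals ran from 18720950 to 27356870, and 3 counts equal 0.108 to 0.160 CPM. Replicates of a group differed by more than sampling noise. Alternatives were DESeq2 1.42.0, limma 3.58.1 (voom), library size alone, no filter, robust fits, a replicate block, 1 fit of all libraries, each library left out and a fold limit of 2. The quasi-likelihood, voom and DESeq2 tests were checked on simulated data. Lengths without shared bases were added after seeing the data. Same-numbered libraries did not deviate together (correlation -0.0764 in Molm13 and -0.0139 in THP1).

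The members and lists were chosen with earlier results of these data known. Named are all 7 members, up to 4 called genes per list and comparison (the 2 highest and 2 lowest), all genes within 250 kb as counts, and the genes most like each member. APOBEC1, APOBEC2, APOBEC4, IRF1, LYZ, CD3D, CD3E, CD3G, CD8A, KLRD1 and APOBEC3B-AS1 are named outside that limit, chosen after their values were seen. Some genes of the lists are not reported here.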

Additional observations from a re-analysis of the deposited data

Results flagged for a closer look

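APOBEC3C and APOBEC3G responded to shPRMT9 by different amounts in THP1 and Molm13. The interaction term (THP1 minus Molm13) was -0.63 on the log2 scale for APOBEC3C and -0.75 for APOBEC3G, with an FDR of 2.5e-15 and 2.6e-04 in edgeR's quasi-likelihood test. Both knockdown libraries exceeded both controls for APOBEC3G in both lines, and for APOBEC3C in Molm13, whereas the THP1 libraries of APOBEC3C overlapped. Such separation only describes the libraries, and its share over all genes was not counted. The line and its handling cannot be told apart. With 2 libraries in a group, no library could be tested for standing apart from its group.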

How the results depend on the processing

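Of the log2 fold changes of the members under the alternatives, 268 kept their direction and their side of the threshold, 7 changed sign, 2 passed the threshold and 1 lost it. APOBEC3G ranged from 1.73 to 1.82 in Molm13 and 0.93 to 1.06 in THP1, APOBEC3C from 0.64 to 0.73 in Molm13, APOBEC3H from 1.13 to 1.54 in Molm13 and APOBEC3F from 0.84 to 0.93 in THP1, and the called differences between lines from -0.71 to -0.62 for APOBEC3C and -0.85 to -0.73 for APOBEC3G. In Molm13, APOBEC3F lost its call under DESeq2 (1.49, FDR 0.0547). APOBEC3D was called in Molm13 without shCtrl library 2 (1.70) and between the controls without Molm13 shCtrl library 1 (-1.55). The latter sets its levels across lines, where they are not comparable, as given above. The sign changes were all in values that were not called, with 1 library left out each time. In THP1, APOBEC3B came to -0.0016 without shCtrl library 2 and -0.024 without shPRMT9 library 2 (range -0.024 to 0.084), and APOBEC3C to -0.0066 without shPRMT9 library 1 (range -0.0066 to 0.090). The difference between lines came to 0.34 for APOBEC3D without Molm13 shCtrl library 1 and 0.019 without THP1 shCtrl library 2 (range -1.16 to 0.34), and to -0.65 for APOBEC3H without THP1 shCtrl library 1 and -0.86 without THP1 shPRMT9 library 1 (range -0.86 to 3.72). The fewer samples of those fits and the low counts of APOBEC3D and APOBEC3H limit these values.

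With a fold limit of 2 in place of 1.5, which is stricter by construction, DEGs numbered 1302 against 3744 in Molm13 and 400 against 1013 in THP1, and member DEGs 0 against 2 in THP1. APOBEC3G in THP1 lay just under that limit, at 1.998-fold. With 1 library left out, called genes numbered 9825 to 10414 in Molm13 (DEGs 3624 to 3746, members 4 to 5, member DEGs 3 to 3), 5083 to 5549 in THP1 (DEGs 987 to 1034, members 2 to 2, member DEGs 2 to 2), 7332 to 7839 for the difference between lines (members 2 to 2) and 11467 to 12180 between controls (members 3 to 4). Libraries with the same number did not deviate together, which does not exclude a shared culture or day. With the replicate number as a block, called genes numbered 10855 in Molm13, 6054 in THP1, 7961 for the difference and 11061 between controls, DEGs 3711 and 1019, and members 4, 2, 2 and 3, and no member call changed.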
